A study of Saccharomyces cerevisiae with 6 samples.

Results

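The genes described here, 47 of 5479 gene models measured in yeast, encode proteins of the small subunit of the cytosolic ribosome or proteins bound to it, and were chosen by gene name. The small subunit binds messenger RNA, and its decoding centre checks each codon against a transfer RNA. It is built from a ribosomal RNA and a set of small, mostly basic proteins, which in Saccharomyces cerevisiae are encoded by genes named RPS. Many of these proteins are encoded by a pair of duplicated genes, called the A and B copies, and yeast keeps an unusually large part of its introns in ribosomal protein genes. Transcription of these genes follows growth rate and nutrient supply through the TORC1 and protein kinase A pathways, and in a chemostat the dilution rate sets the growth rate.

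Levels were taken from 6 RNA libraries of 2 yeast strains, 3 per strain, each from an independent aerobic chemostat culture limited by glucose. IMY104 carries deletions of ACS1 and ACS2, the genes for acetyl-CoA synthetase, and the plasmid pUDC140 with CEN6 and ARS4, on which lie pdhA, pdhB, aceF and lpd (the pyruvate dehydrogenase of Enterococcus faecalis) and that bacterium's lipoylation genes lplA and lplA2. CEN.PK113-7D is the reference strain with intact ACS1 and ACS2 and no plasmid listed. Both strains received 500 ng/mL lipoic acid with 7.5 g/L glucose and were held at pH 5.0 and 30 °C, and a dilution rate of 0.10 per h imposed the same growth rate on both. The library name of IMY104 in the table also carries cenpk102-12a, the name of another CEN.PK strain. Only a single FPKM value per strain (fragments scaled to model length and to all fragments) and the authors' test are in the authors' deposited table, so neither a spread between cultures nor a depth is known.

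The genes were chosen by name: table rows named RPS with a number and an optional A or B, together with ASC1 and STM1, keeping the longest gene model of each name. This gave 47 genes of the 5479 gene models in the table, from 51 rows, and the authors tested each of the 47. Of the 51 rows, 5 carry the name of the other copy of their pair: their flanking genes in the R64 annotation of strain S288C place 3 of them at RPS16A, RPS18B and RPS23B, where the table says RPS16B, RPS18A and RPS23A. They are called here by their place. Both copies of RPS16, RPS18 and RPS23 thus had a row, although the rule keeps only the longer row (RPS16A, RPS18A and RPS23B), and the shorter rows enter the pair shares only. R64 lists 58 genes that fit the rule, in 24 pairs and 10 single genes, and 51 of these places had a model. The other 7, among them RPS4A, RPS6B, RPS24B, RPS27A, RPS30A and RPS30B, are not analysed here.

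RPS22B was the only small subunit gene called different between the strains, and its sequence bears on how well it can be told from its partner. RPS22A and RPS22B encode the same subunit protein, which lies in the body of the subunit and contacts the ribosomal RNA, and the encoded proteins differ at 1 of 130 residues. Their coding sequences in R64 differ at 41 of 393 bases, and the longest stretch they share without a difference is 35 bases. The opening 180 coding bases of each copy are shown, with capitals at the 20 bases that differ from the other copy. Within the coding sequence, reads of the copies can be told apart only at differing bases. RPS22A is at chr10:74910-75302 on the minus strand and RPS22B at chr12:856442-857317 on the plus strand, both in R64.
RPS22A: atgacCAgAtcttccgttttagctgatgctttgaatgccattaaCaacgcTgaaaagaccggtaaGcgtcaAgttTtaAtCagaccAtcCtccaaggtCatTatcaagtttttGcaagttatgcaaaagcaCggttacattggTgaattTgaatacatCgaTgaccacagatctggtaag
RPS22B: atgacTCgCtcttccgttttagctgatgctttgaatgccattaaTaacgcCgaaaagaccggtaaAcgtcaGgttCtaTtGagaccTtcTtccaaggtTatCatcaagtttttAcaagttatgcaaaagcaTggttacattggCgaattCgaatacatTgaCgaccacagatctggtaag

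RPS22A has no coding intron in R64, whereas RPS22B has an intron of 483 bases inside its coding sequence. That intron holds SNR44, a box H/ACA small nucleolar RNA of 211 bases that guides pseudouridine formation in ribosomal RNA, at its bases 136 to 346. The end of the exon with the start of the intron (chr12:856563-856592) and the branch region with the end of the intron (chr12:857022-857069) are shown because reads across them would separate spliced from unspliced RNA, which the deposited values do not do. Capitals mark the bases at the intron's start, the branch sequence and the intron's last 3 bases.
RPS22B intron start: tgcaaaagcatgGTATGTtccaactatttt
RPS22B intron end: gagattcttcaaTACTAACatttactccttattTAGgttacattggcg

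RPS22B (YLR367W, chromosome 12, 841572 to 842438 in the authors' assembly) had 333 FPKM in IMY104 and 444 FPKM in CEN.PK113-7D in the authors' deposited table. It fell by 0.41 on the log2 scale, or 1.33-fold, with a q-value of 0.000874 in the authors' deposited table. The standard error implied by the deposited p-value was 0.11, which gives a 95% interval of -0.62 to -0.21. That p-value, 0.0001 in the authors' test, is close to the smallest deposited, 5e-05, so the error and interval are approximate. The gene model spans the intron, and SNR44 lies on the same strand as RPS22B. RNA of SNR44 and of the unspliced transcript therefore cannot be told apart from spliced messenger RNA in these values. The partner RPS22A had 2957 FPKM in IMY104 and 3086 FPKM in CEN.PK113-7D, with a log2 ratio of -0.06 and a q-value of 0.730, in the authors' deposited table.

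No other gene of the small subunit passed the test. Of the 47 genes 1 was called lower and 0 higher at a q-value under 0.05, against 22.6% of all tested models called in either direction, 11.0% of all tested models called lower and 11.6% called higher in the authors' deposited table. RPS22B was also the only call at a q-value under 0.01, where 8.51% of all models were lower and 7.54% higher, and under 0.10, where 13.1% were lower and 14.6% higher. With a change of at least 2-fold required as well, 0 small subunit genes were called by the authors' test, against 1.06% of all models lower and 0.824% higher. At an unadjusted p under 0.05 the count was 2, RPS22B and RPS9A, against 32.2% of all tested models. The median log2 ratio (IMY104 over CEN.PK113-7D, as deposited) of the 47 genes was -0.06, with quartiles of -0.09 and -0.02. Over all 5463 tested models the median was 0.01, with quartiles of -0.11 and 0.14. The standard errors implied by the deposited p-values ran from 0.09 to 0.11 over the 47 genes, with a median of 0.10, beside a median of 0.10 over all tested models. The 95% interval lay within -0.4 and 0.4 on the log2 scale for 46 of the 47 genes, the exception being RPS22B, and within -0.3 and 0.3 for 36.

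**Figure D1:**
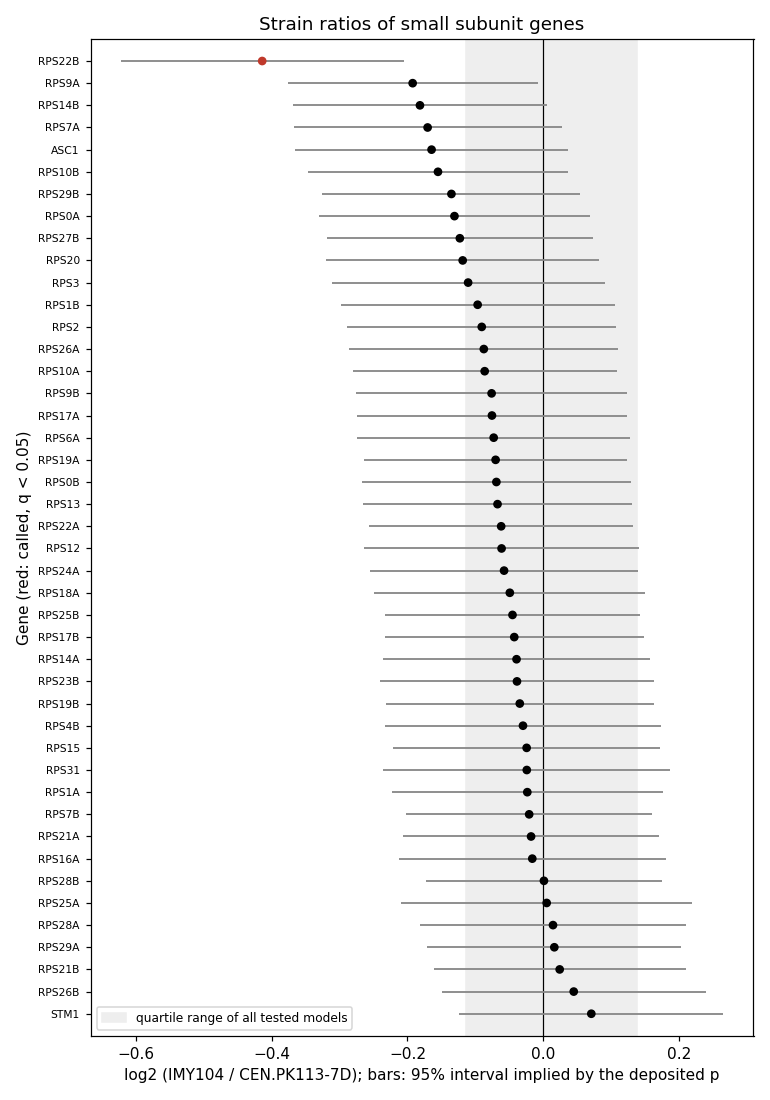
The log2 ratio of IMY104 over CEN.PK113-7D is plotted on the horizontal axis for 44 of the 47 genes, with bars for the 95% interval implied by the deposited p-value and a grey band for the range between the quartiles of all tested models (-0.11 to 0.14). RPS22B, in red, is the only called gene, at -0.41, and the other genes shown lie between -0.19 and 0.07.

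More genes of the small subunit lay below 0 than above, by small amounts. The log2 ratio was below 0 for 39 of the 47 genes and above 0 for 8, with 47.8% of all tested models below 0. After quantile normalization of the strains 23 were below 0 and 23 above. That step gives both strains the same distribution of levels, so it can itself remove a shift shared by strongly expressed models. Among genes of the large subunit 51 of 59 were below 0 as deposited, with a median of -0.08. Of the 59, 2 were called lower and 0 higher, against 11.0% of all tested models lower and 11.6% higher. A set of 534 strongly expressed models left out ASC1, STM1 and genes named RPS or RPL, but not ribosomal protein genes of other names. These models had a median of -0.05 and wider quartiles of -0.23 and 0.14, and 36.5% of them were called. Set against that median in place of 0, 27 of the 47 small subunit genes were lower. Set against the median of all tested models, 0.01, 41 of the 47 were lower.

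**Figure D2:**
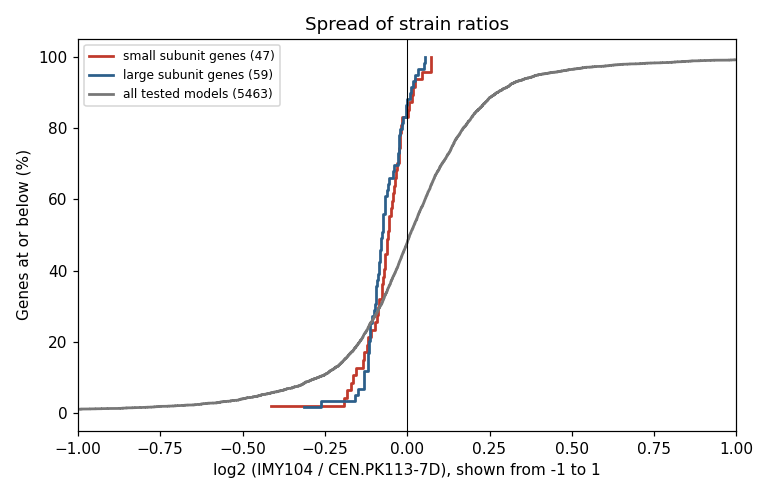
Cumulative share of genes (vertical axis, %) at or below each log2 ratio of IMY104 over CEN.PK113-7D (horizontal axis) for small subunit genes, large subunit genes and all tested models. The curves of both subunits are steep, with quartiles of -0.09 and -0.02 for the small subunit, while the curve of all models has quartiles of -0.11 and 0.14.

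The levels were high, as is known of ribosomal protein genes. The median of the 47 genes was 2047 FPKM in IMY104 and 2153 FPKM in CEN.PK113-7D, and over all tested models it was 85.3 FPKM in IMY104 and 83.6 FPKM in CEN.PK113-7D. The lowest gene, RPS7B, had 238 FPKM in IMY104 and 241 FPKM in CEN.PK113-7D in the authors' deposited table. RPS29B was the highest, with 20589.9 FPKM in IMY104 and 22612 FPKM in CEN.PK113-7D in the authors' deposited table. The sum of levels over the 47 genes was 170174 FPKM in IMY104 and 176820.0 FPKM in CEN.PK113-7D.

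**Figure D3:**
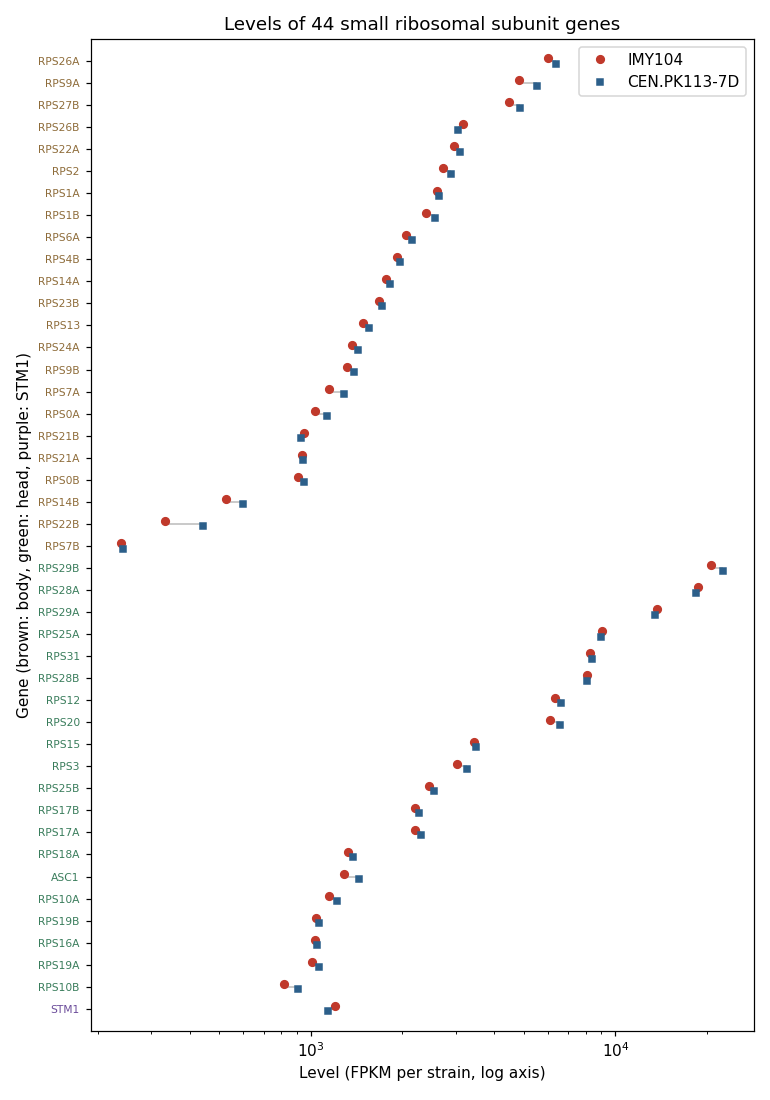
Level of 44 of the 47 genes in FPKM per strain (horizontal log axis), with circles for IMY104 and squares for CEN.PK113-7D, ordered by place in the subunit and by level. The strains lie close together in most rows and farthest apart for RPS22B (333 FPKM in IMY104 and 444 FPKM in CEN.PK113-7D), and levels run from about 238 FPKM for RPS7B to 20589.9 FPKM for RPS29B in IMY104.

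Model length moved with the level, and its part in the order of the genes was not tested. The Spearman correlation of level with model length over the 47 genes was -0.75 in IMY104 and -0.73 in CEN.PK113-7D, and over 5456 chromosomal models it was -0.58 in IMY104 and -0.57 in CEN.PK113-7D. Models of up to 200 bp, of any gene, had a median of 5477 FPKM in IMY104 and 5643 FPKM in CEN.PK113-7D, while models of 800 to 1000 bp had 123 FPKM in IMY104 and 119 FPKM in CEN.PK113-7D. Lengths here count introns, and which exons the authors used for FPKM is not given in the sources used here. Genes with a coding intron in R64, 27 in all, had a median of 1149 FPKM in IMY104 and 1289.6 FPKM in CEN.PK113-7D, and the 20 without had 4820.0 FPKM in IMY104 and 5009.9 FPKM in CEN.PK113-7D. Rescaled to the coding length in R64, which altered 26 genes, the genes with an intron had 2363 in IMY104 and 2420.3 in CEN.PK113-7D, and the SD of log2 level over all 47 genes was 1.09 instead of 1.41 in IMY104 and 1.08 instead of 1.39 in CEN.PK113-7D. Both strains share each model, so its length cancels in the strain ratio of a gene.

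**Figure D4:**
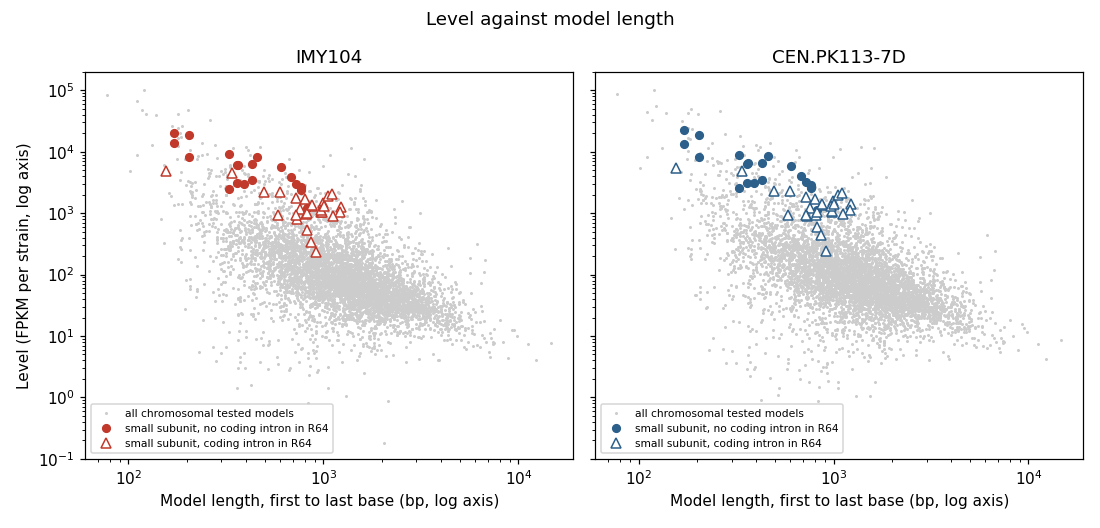
Level in FPKM (vertical log axis) against model length in bp (horizontal log axis) in IMY104 and in CEN.PK113-7D. Grey points are all chromosomal tested models, filled circles are small subunit genes without and open triangles those with a coding intron in R64. Short models lie high in both strains, and the small subunit genes lie above most models of their length.

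In the body of the subunit, which carries the decoding centre with the head above it, 22 of 25 genes had a deposited log2 ratio below 0. Their median was -0.07, and 1 of the 25 was called, against 22.6% of all tested models. RPS2, whose protein lies at the messenger RNA entry channel and bears on decoding accuracy, had 2708 FPKM in IMY104 and 2884 FPKM in CEN.PK113-7D in the authors' deposited table. RPS13, a body protein next to the interface with the large subunit, had 1479 FPKM in IMY104 and 1549.9 FPKM in CEN.PK113-7D in the authors' deposited table. Neither was called, and the log2 ratio was -0.09 for RPS2 and -0.07 for RPS13 in the authors' deposited table.

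RPS9A, whose protein also bears on decoding accuracy, had 4842 FPKM in IMY104 and 5532 FPKM in CEN.PK113-7D, a log2 ratio of -0.19 and a q-value of 0.133 in the authors' deposited table. Its model covers 156 bp of a gene whose coding length in R64 is 594 bases, so its level is less certain, and after quantile normalization its log2 ratio turned to 0.05. RPS14B had 528 FPKM in IMY104 and 599 FPKM in CEN.PK113-7D, a log2 ratio of -0.18 and a q-value of 0.170 in the authors' deposited table. Its protein, which lies on the platform, is known to hold back its own synthesis through the RPS14B transcript. RPS7A had 1146 FPKM in IMY104 and 1289.6 FPKM in CEN.PK113-7D, a log2 ratio of -0.17 and a q-value of 0.237 in the authors' deposited table. RPS0B, whose protein is needed for maturation of the subunit, was among the 5 lowest in level in IMY104 but not in CEN.PK113-7D, with 909 FPKM in IMY104 and 954 FPKM in CEN.PK113-7D in the authors' deposited table.

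The positive values were smaller. RPS26B, whose protein lies at the messenger RNA exit channel, had 3150.0 FPKM in IMY104 and 3053 FPKM in CEN.PK113-7D, a log2 ratio of 0.05, in the authors' deposited table. RPS21B had 947 FPKM in IMY104 and 931 FPKM in CEN.PK113-7D, a log2 ratio of 0.02, in the authors' deposited table. None of these was called.

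Of 21 genes of the head, which swings during movement along the messenger RNA, 17 had a deposited log2 ratio below 0, with a median of -0.05. The authors' test called 0 of the 21, against 22.6% of all tested models. At an unadjusted p under 0.05 the count was 0 as well, against 32.2% of all tested models. RPS3, at the messenger RNA entry channel, had 3022 FPKM in IMY104 and 3262 FPKM in CEN.PK113-7D in the authors' deposited table. RPS15, whose tail reaches towards the decoding centre, had 3432 FPKM in IMY104 and 3490.0 FPKM in CEN.PK113-7D in the authors' deposited table. Their log2 ratios were -0.11 for RPS3 and -0.02 for RPS15 in the authors' deposited table.

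RPS20, a head protein that is ubiquitinated on collided ribosomes, had 6078 FPKM in IMY104 and 6598 FPKM in CEN.PK113-7D, a log2 ratio of -0.12, in the authors' deposited table. RPS12, a protein of the beak of the head, had 6349 FPKM in IMY104 and 6625 FPKM in CEN.PK113-7D, a log2 ratio of -0.06, in the authors' deposited table. RPS31, made as a fusion with ubiquitin, had 8250.3 FPKM in IMY104 and 8389 FPKM in CEN.PK113-7D, a log2 ratio of -0.02, in the authors' deposited table. RPS10B, among the 5 lowest in level, had 814 FPKM in IMY104 and 906 FPKM in CEN.PK113-7D, a log2 ratio of -0.15, in the authors' deposited table. All single-copy RPS genes had a value below 0 as deposited, and none was called, but after quantile normalization RPS12 turned to 0.16, RPS20 to 0.15, RPS15 to 0.11 and RPS13 to 0.01.

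ASC1, the yeast RACK1, a scaffold protein on the head that takes part in signalling and in ribosome quality control, had 1283 FPKM in IMY104 and 1438 FPKM in CEN.PK113-7D in the authors' deposited table. Its log2 ratio was -0.16 with a q-value of 0.269 in the authors' deposited table, and its intron in R64 holds the small nucleolar RNA SNR24. STM1, a protein that binds the ribosome and preserves it when nutrients run out, had 1200.0 FPKM in IMY104 and 1142 FPKM in CEN.PK113-7D in the authors' deposited table. STM1 had a log2 ratio of 0.07 with a q-value of 0.687 in the authors' deposited table, the only positive value as deposited among the 10 single-copy genes.

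Among the 24 pairs, 18 had a model at both places, so that the division of the level between copies could be given. The A copy held more than 50% of the pair's summed FPKM in 12 pairs in IMY104 and in 14 pairs in CEN.PK113-7D, and 16 pairs had the same larger copy in both strains. In 7 pairs the share of A lay between 45% and 55% in both strains. The share of A differed between the strains by a median of 0.90 percentage points, and by no more than 2.49.

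**Figure D5:**
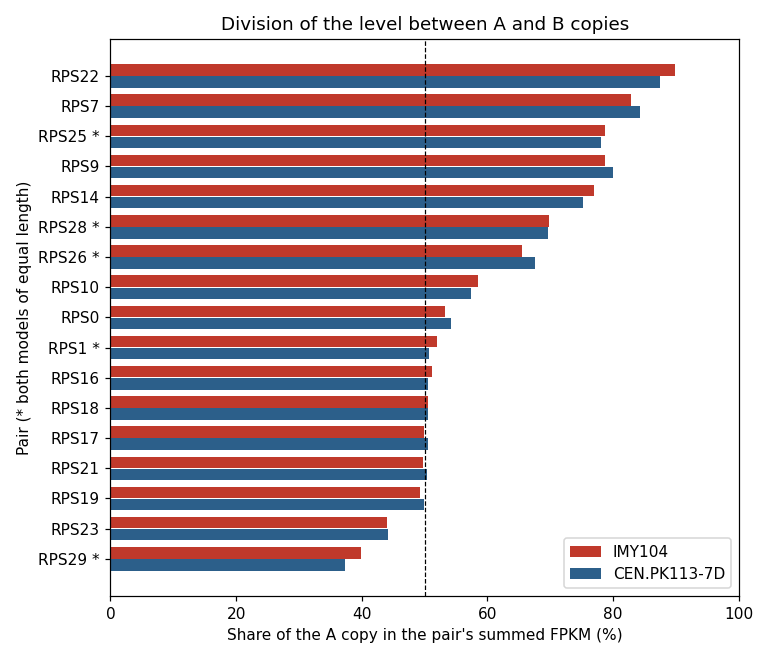
Share of the A copy in the summed FPKM of 17 of the 18 pairs (horizontal axis, %), with red bars for IMY104 and blue bars for CEN.PK113-7D and a dashed line at 50%. Shares run from 39.9% for RPS29 to 89.9% for RPS22 in IMY104, and the bars of a pair are of nearly the same length.

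In 5 pairs the models of both copies are of equal length, so length does not enter their shares. RPS25A, whose protein is used by viral and cellular internal ribosome entry sites, had 9033 FPKM in IMY104 and 9000.2 FPKM in CEN.PK113-7D in the authors' deposited table. RPS25B had 2452 FPKM in IMY104 and 2529.5 FPKM in CEN.PK113-7D in the authors' deposited table. This put the share of RPS25A at 78.7% in IMY104 and 78.1% in CEN.PK113-7D.

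The share of RPS28A was 69.8% in IMY104 and 69.6% in CEN.PK113-7D, and that of RPS26A was 65.6% in IMY104 and 67.6% in CEN.PK113-7D. RPS1 was close to even, with 51.9% for RPS1A in IMY104 and 50.7% in CEN.PK113-7D. RPS29 was the only pair of equal length in which B was the larger copy, with 39.9% for RPS29A in IMY104 and 37.4% in CEN.PK113-7D.

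The coding sequences of RPS28, a protein near the messenger RNA exit, and of RPS29, a zinc-binding head protein, are shown because these pairs have the highest summed levels and are divided unevenly. They are given whole from R64, with capitals at the bases that differ from the other copy, 24 of 204 in RPS28 and 14 of 171 in RPS29. RPS28A is at chr15:648804-649007 (minus), RPS28B at chr12:673131-673334 (plus), RPS29A at chr12:898651-898821 (plus) and RPS29B at chr4:340628-340798 (minus).
RPS28A: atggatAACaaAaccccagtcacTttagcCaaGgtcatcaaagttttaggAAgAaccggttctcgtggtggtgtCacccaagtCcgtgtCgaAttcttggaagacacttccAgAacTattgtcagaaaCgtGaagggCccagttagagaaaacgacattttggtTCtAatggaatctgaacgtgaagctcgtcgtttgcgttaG
RPS28B: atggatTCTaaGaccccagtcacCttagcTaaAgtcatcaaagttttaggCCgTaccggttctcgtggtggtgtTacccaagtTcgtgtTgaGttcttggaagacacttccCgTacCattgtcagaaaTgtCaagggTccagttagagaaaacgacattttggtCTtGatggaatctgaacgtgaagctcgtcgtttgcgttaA
RPS29A: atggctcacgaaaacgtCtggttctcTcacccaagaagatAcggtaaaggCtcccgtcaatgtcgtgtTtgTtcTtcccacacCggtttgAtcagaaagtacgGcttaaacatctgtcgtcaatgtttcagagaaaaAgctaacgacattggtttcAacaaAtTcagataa
RPS29B: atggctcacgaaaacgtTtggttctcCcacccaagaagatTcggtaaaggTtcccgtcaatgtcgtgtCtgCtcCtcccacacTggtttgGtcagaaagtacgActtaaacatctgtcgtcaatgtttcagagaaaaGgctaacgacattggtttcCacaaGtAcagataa

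RPS28A had 18639 FPKM in IMY104 and 18453 FPKM in CEN.PK113-7D, and RPS28B had 8080 FPKM in IMY104 and 8073 FPKM in CEN.PK113-7D, in the authors' deposited table. RPS29A had 13651 FPKM in IMY104 and 13496 FPKM in CEN.PK113-7D, a log2 ratio of 0.02, in the authors' deposited table. The strain ratio of RPS28B, whose messenger RNA is known to be turned over under control of its own protein, was the nearest to 0 of the 47, at 0.0012 on the log2 scale in the authors' deposited table.

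The pairs most tilted towards A were RPS22, RPS7, RPS9, RPS25 and RPS14. RPS22A held 89.9% of its pair in IMY104 and 87.4% in CEN.PK113-7D, and when FPKM was multiplied by model length 80.1% in IMY104 and 75.9% in CEN.PK113-7D. For RPS7, RPS7A held 82.8% in IMY104 and 84.3% in CEN.PK113-7D, on models of 974 and 918 bp, and the encoded proteins differ at 23 of 190 aligned residues, the most of any pair. For RPS14, RPS14A held 77.0% in IMY104 and 75.2% in CEN.PK113-7D. The share of RPS9A, 78.6% in IMY104 and 80.0% in CEN.PK113-7D, rests on its short model and became 36.4% in IMY104 and 38.3% in CEN.PK113-7D when FPKM was multiplied by model length.

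Among the pairs with the lowest shares of A were RPS29, RPS23, RPS19 and RPS21. RPS23A, whose protein lies at the decoding centre, held 44.0% in IMY104 and 44.1% in CEN.PK113-7D. RPS19A held 49.3% in IMY104 and 49.9% in CEN.PK113-7D, and RPS21A held 49.7% in IMY104 and 50.4% in CEN.PK113-7D. The last 2 pairs are close to even in FPKM, but their models differ in length (825 and 986 bp in RPS19, 586 and 724 bp in RPS21). When FPKM was multiplied by model length, RPS19A held 44.8% in IMY104 and 45.4% in CEN.PK113-7D. RPS21A then held 44.4% in IMY104 and 45.1% in CEN.PK113-7D.

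Between copies of a pair the strain ratio differed most in RPS22, where the log2 ratio of A minus that of B was 0.35, with an implied 95% interval of 0.07 to 0.64. The next largest were 0.15 in RPS29, -0.15 in RPS7, 0.14 in RPS14 and -0.13 in RPS26, and the interval spanned 0 in 17 of the 18 pairs. After quantile normalization RPS26 turned to 0.12 and RPS29 came to 0.04, while RPS22 stayed at 0.35. These intervals take the copies as independent, which they are not where reads fit both, and the differences were not tested. The interval of RPS22 also rests on the approximate standard error of RPS22B.

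Whether sequence likeness bears on the differences between copies was not tested. The coding sequences of the 18 pairs with both models are identical at 85.2% to 96.6% of aligned bases in R64, with a median of 92.2%, and the 6 pairs with a model missing have 84.3% to 99.2%, with a median of 97.6%. The encoded proteins are identical in 9 of the 24 pairs. In RPS6 the copies share a stretch of 311 bases without a difference, while the placing of reads that fit both copies is not given in the sources used here. At RPS6A, the single model of RPS6 had 2047 FPKM in IMY104 and 2153 FPKM in CEN.PK113-7D in the authors' deposited table. Reads of the copies cannot be told apart in these values.

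Of 10 genes that act in the transcription of ribosomal protein genes, 1 was called lower and 1 higher, against 22.6% of all tested models called. CRF1, a corepressor that can replace the coactivator Ifh1 on Fhl1 when TORC1 is inactive, had 46.7 FPKM in IMY104 and 197 FPKM in CEN.PK113-7D, a log2 ratio of -2.07 with q = 0.000470, in the authors' deposited table. ABF1, a general regulatory factor that binds some ribosomal protein promoters in place of Rap1, had 133 FPKM in IMY104 and 98.6 FPKM in CEN.PK113-7D, a log2 ratio of 0.43 with q = 0.000470, in the authors' deposited table. The list's median was -0.02.

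Of 14 genes that signal to ribosomal protein genes, among them TORC1, protein kinase A and casein kinase genes, 0 were called by the authors' test, against 22.6% of all tested models. An unadjusted p under 0.05 was found for 3 of the 14, all of them lower. Of the 5463 tested models 823 were lower at that p, and 32.2% passed it in either direction. The median of the signalling list was 0.02. Of 14 chaperones of single small subunit proteins and late assembly factors, 1 was called higher and 0 lower, against 11.6% of all tested models called higher and 11.0% lower. Of these 14 genes 4 had an unadjusted p under 0.05, and 0 of the 4 were lower. Over the 5463 tested models 1758 (32.2%) passed that p, and 823 of them were lower. Whether the list differs from all models in this was not tested. The median log2 ratio of the 14 assembly genes was 0.12, with 11 of them above 0. DIM1, which methylates the small subunit ribosomal RNA, rose to 166 FPKM in IMY104, against 141 FPKM in CEN.PK113-7D, with a log2 ratio of 0.24 and a q-value of 0.0422 in the authors' deposited table.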

How the data were processed

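RNA was measured in 6 libraries, 3 per strain. Per the submitters' processing notes Cuffdiff, Cufflinks, SAMtools 0.1.7-r510, BWA 0.5.9-r16 and CASAVA 1.8.2 were used, while the role of each, the genome build and the scaling is not given in the sources used here. Libraries of a strain were combined by the authors into 1 FPKM value on predicted gene models, per the file headers. Further deposited columns are a log2 fold change (IMY104 over CEN.PK113-7D, called log2 ratio here), a signed fold value (not used), a test statistic (a score, not used), a p-value and a q-value. With no value per library, the planned limma fit could not be run, and calls are the authors' own at q under 0.05. The deposited q-values equalled recomputed Benjamini-Hochberg values within 5.2e-07.

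The standard error of a log2 fold change was taken as its size divided by the normal quantile of the deposited two-sided p-value; at the smallest deposited p of 5e-05 this does not hold, and none is given for CRF1 or ABF1. The cultures are independent per the labels; their spread enters only through the p-values the authors deposited. The library protocol names no strand-marking step. Coordinates without a build are those of the authors' assembly. Sequences, coding lengths and introns come from the RefSeq annotation of R64 (strain S288C) and were not compared with the strains' own; pairs were aligned with Biopython 1.88. Calculations used Python 3.11.15, pandas 2.3.3 and scipy 1.17.1, and steps over all models were tested on simulated data.

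Genes named in the text are called genes, the 5 highest and lowest levels, the 5 largest and smallest ratios, single-copy genes, the 5 most uneven pairs in each direction, the 5 pairs with the largest difference between copies, and called genes of other lists; further genes were named after their values were seen. Some genes that this rule names are not reported here; they are counted in the totals and left out of the plots by gene name. The members and lists were chosen with earlier results of these data known.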

Additional observations from a re-analysis of the deposited data

How the results depend on the processing

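The count of 1 lower and 0 higher small subunit genes was the same at a q-value under 0.01 or under 0.10, with every model of a name counted, with models of at least 300 bp and with at least 10 FPKM in both strains. At a q-value under 0.05 with a change of at least 2-fold, 0 were lower and 0 higher in the authors' test. Of all tested models 1.06% were lower and 0.824% higher at that setting. At an unadjusted p under 0.05 the count was 2 of 47, against 32.2% of all tested models. The median log2 fold change of the 47 genes lay between -0.07 and 0.00 under 9 alternatives, with 0.00 under quantile normalization and -0.01 when centred on 534 strongly expressed models of other genes. The median share of A over pairs in CEN.PK113-7D was 55.6% in place of 52.5% when FPKM was multiplied by model length. In IMY104 it was 54.9% in place of 52.6%. The count of assembly genes called was 0 of 14 at a q-value under 0.01, where 8.51% of all tested models were lower and 7.54% higher. At a q-value under 0.10 it was 3 of 14, all higher, where 13.1% of all tested models were lower and 14.6% higher. The settings for the assembly genes were chosen after seeing the data, as was leaving out RPS9A. A median log2 fold change was counted as the same when it moved by less than the median implied standard error of a gene, 0.10. The median of the 47 genes, -0.06, is smaller in size than 0.10, so a move to 0 also counts as the same. RPS22B stayed lower under a pseudocount of 5 FPKM, quantile normalization and centring. No paired analysis was possible because the table gives no value per library, and leaving out each library was not run for the same reason. The depth is unknown, so no limit on small differences can be had from it.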
